A study of Mus musculus with 6 samples.

Results

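Described here are 5 pairs, each made of a processed pseudogene and the protein-coding host gene in whose intron it lies on the same strand. The pairs are Gm7497 in Colec12, Gm6611 in Lrch3, Gm9042 in Pcgf5, Gm19040 in Atg7 and Gm18981 in Cacna1c, that is 10 of the 54532 genes listed in the count files. They were picked by name because reads of the pseudogene were many in SAFB KD libraries and few in control libraries. Their changes between these groups are therefore given as a description, with no p-value. Where calls from the test over all genes are mentioned for them, nothing is concluded from those calls. The study asked which RNAs are altered when mouse cells are depleted of SAFB proteins. Poly(A)+ RNA was sequenced from 3T3 cells, an established line of mouse fibroblasts, here Flp-In 3T3 cells, which carry an integration site for transgenes. The SAFB KD group (the triple KD of the labels) received siRNAs against Safb, Safb2 and Sltm together (3 libraries), and the control group received a control siRNA (3 libraries). Cells were harvested on the third day after the first transfection, and no group knocked down 1 gene alone in these files.

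Processed pseudogenes are copies of spliced mRNAs that were reverse transcribed and inserted into the genome, usually by the enzymes of L1 retrotransposons, and so they lack the introns of their parent genes. Many lie in introns of other genes, and a copy in the orientation of its host is transcribed as part of the host pre-mRNA and is normally removed with the intron. SAFB proteins are nuclear RNA-binding proteins that prefer purine-rich RNA such as GAAGAA, a sequence that SR proteins also use to enhance splicing of exons.

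The libraries held 33323307 to 53441129 counts, where a count is 1 read assigned to 1 gene. Of the genes listed, 19452 had at least 10 reads over the 6 libraries and were tested. Levels are given as CPM, counts per 1000000 counts of a library after scaling by the trimmed mean of M values (TMM). The knockdown was partial at the level of RNA. Safb was at 46.6 ± 2.01 CPM in SAFB KD and 93.7 ± 3.08 CPM in control cells (SD, n = 3 each), Safb2 at 30.0 ± 0.312 CPM in SAFB KD and 46.9 ± 1.79 CPM in control cells, and Sltm at 61.6 ± 0.515 CPM in SAFB KD and 100 ± 4.81 CPM in control cells. All 9 fibroblast markers examined were expressed in control cells, with summed levels of 17310 to 17775 CPM in SAFB KD and 18476 to 20393 CPM in control libraries. In bulk RNA, fewer cells that express a gene and less RNA per cell cannot be told apart. Control 1 and control 3 differed more than any other replicate pair (chi-square per degree of freedom 21.7, against 4.18 for the closest pair). This does not single out either of them, as control 2 was at 7.95 from control 1 and at 6.43 from control 3. Values that rest on control 3 are also given without it.

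All 5 pseudogenes are single-block, intron-less models that share 0 bases with exons of their hosts, and their 90-base stretches printed here come from the GENCODE transcripts of GRCm38. The stretch with the most GAAGAA, on the RNA strand and with each GAAGAA in capitals, is shown for 3 of the 4 pseudogenes that hold the motif. It is shown because GAAGAA is the kind of sequence that SAFB proteins bind. As it was chosen for the most GAAGAA, it does not show how the motif is spread over a copy. The stretches lie at chr16:32923599-32923688 (+) for Gm6611, chr19:36406003-36406092 (+) for Gm9042 and chr6:118618630-118618719 (-) for Gm18981.
Gm6611: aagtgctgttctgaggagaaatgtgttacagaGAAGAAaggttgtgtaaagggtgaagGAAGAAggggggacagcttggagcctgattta
Gm9042: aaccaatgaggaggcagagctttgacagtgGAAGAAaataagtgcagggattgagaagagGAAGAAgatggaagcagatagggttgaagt
Gm18981: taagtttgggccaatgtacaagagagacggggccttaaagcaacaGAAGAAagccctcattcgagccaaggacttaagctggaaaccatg
The stretches of Gm6611 and Gm9042 held 2 GAAGAA each, at 70.0% and 76.7% purine, and the Gm18981 stretch held 1, at 62.2% purine.

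The positions of the pseudogenes within their hosts differed. Gm7497 (chromosome 18, 9748732 to 9749724, 993 bases) lies in intron 2 of the 9 introns of the Colec12 transcript, which is the longest of that gene at 119267 bases. Gm6611 (chromosome 16, 32923218 to 32924489, 1272 bases) lies in intron 1 of the 21 of an Lrch3 transcript, and Gm9042 (chromosome 19, 36404447 to 36406110, 1664 bases) in intron 1 of the 9 of a Pcgf5 transcript. Both are again the longest introns of those transcripts, at 35888 and 32796 bases. These 3 copies thus have little of the spliced host mRNA upstream, 2.69% for Colec12, 9.38% for Lrch3 and 4.26% for Pcgf5. Of the whole span of the host gene, introns included, 23.5% of Colec12, 8.98% of Lrch3 and 49.8% of Pcgf5 lies before the copy. Gm19040 (chromosome 6, 114738534 to 114743259, 4726 bases) lies in intron 18 of the 19 of Atg7, a 51982-base intron with 55.2% of the mRNA upstream. Gm18981 (chromosome 6, 118617626 to 118619224, 1599 bases, on the minus strand like its host) lies in intron 35 of the 47 of Cacna1c, a 10289-base intron with 67.2% of the mRNA upstream.

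**Figure D1:**
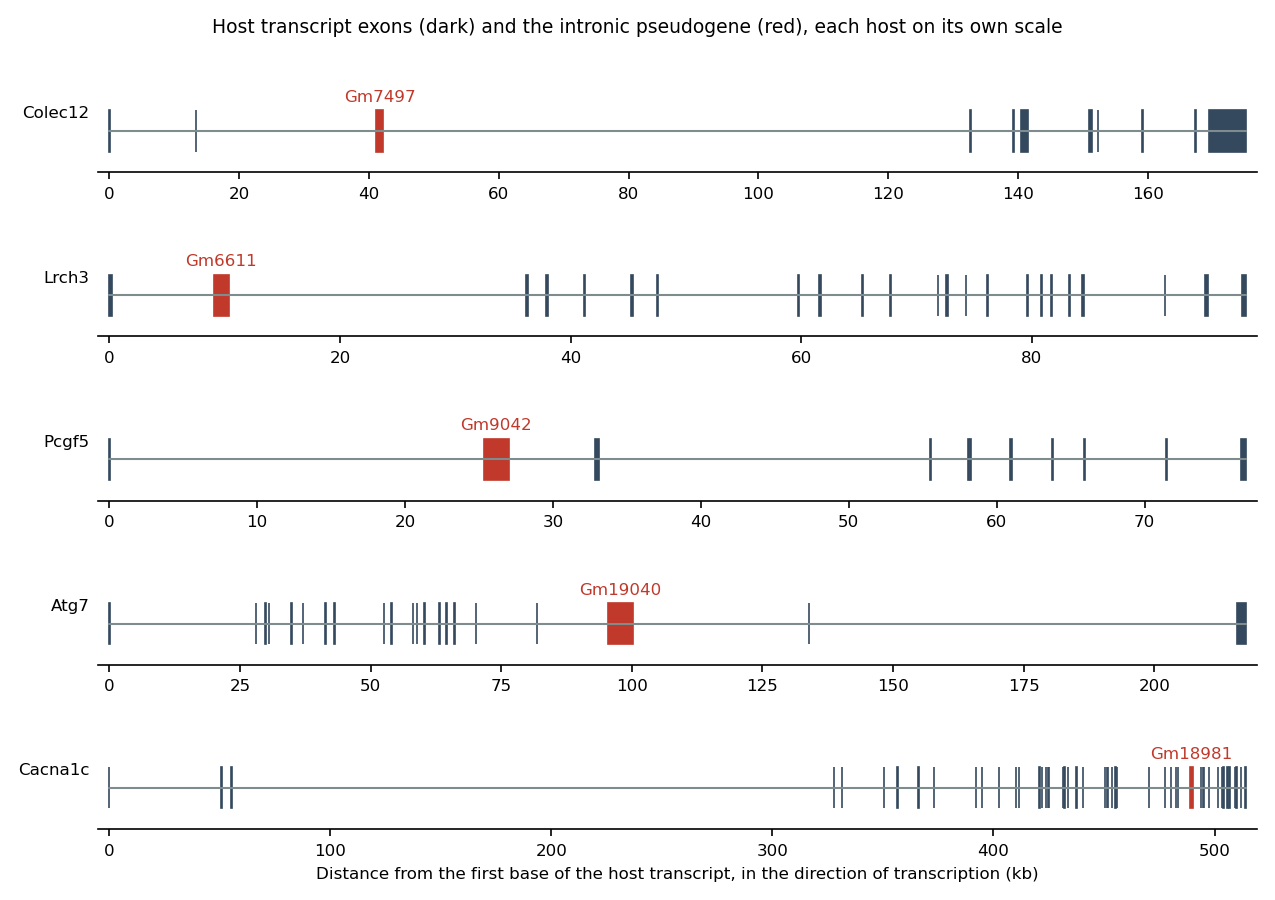
Each row is a host transcript drawn to its own scale from its first base, in kb in the direction of transcription, with exons in dark blue and the pseudogene in red. Gm7497, Gm6611 and Gm9042 sit in the longest intron of the host transcript drawn, with under 10% of its mRNA upstream, whereas Gm19040 and Gm18981 have more than 50% of it upstream.

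Not every host transcript spans its pseudogene. The copy is intronic in the single coding transcript of Colec12 and in all 22 of Cacna1c. For Lrch3 and Pcgf5 it is intronic in 5 of 8 coding transcripts, and the remaining 3 of each gene start downstream of the copy. For Atg7 it is intronic in 6 of 12, and the remaining 6 end upstream of it. Gene counts add the transcripts of a gene, so the values of these hosts do not separate transcripts that span the copy from those that do not. For all 5 hosts they also add exons upstream and downstream of the copy, in shares that differ between hosts. A change limited to either side cannot be seen, and the sizes of host changes are not compared by side.

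Among all 272 pairs of a tested same-strand intronic pseudogene and a tested host that could be placed in a coding transcript, the median intron was 16536 bases and 47.1% of copies lay in the longest intron of the transcript. Of those 272 introns, 21 were longer than that of Colec12, 56 than that of Atg7, 78 than that of Lrch3, 82 than that of Pcgf5 and 167 than that of Cacna1c. The introns of 4 hosts were thus longer than that median, and that of Cacna1c was shorter.

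Reads of the pseudogenes were scarce in control cells and present in every SAFB KD library. By the edgeR quasi-likelihood test over all genes, the 5 pseudogenes were all called higher, a call that 21.4% of tested genes received, and all 5 were called higher beyond 2-fold with glmTreat, as were 0.699% of tested genes. In CPM the groups did not overlap for any of the 5 pseudogenes, which was the case, with SAFB KD higher, for 25.3% of tested genes. Of the hosts, 4 were called lower, as were 20.1% of tested genes (41.5% were called in either direction), and Colec12 was called lower beyond 2-fold, as were 0.524%. Since these libraries chose the pairs, nothing is read from the counts of members.

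Gm7497 is a copy of Gapdh, which encodes a glycolytic enzyme. It had 120, 146 and 177 counts in SAFB KD 1 to 3, against 2, 7 and 4 counts in control 1 to 3. Every SAFB KD library was far above every control library, and the SAFB KD libraries were almost level once scaled. The level was 3.39 ± 0.0182 CPM in SAFB KD and 0.112 ± 0.0634 CPM in control cells (SD, n = 3 each), a log2 fold change of 4.90 (SE 0.285), or 29.9-fold. Leaving out control 2, which held most of the control reads, gave 5.38.

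Its host Colec12 encodes a scavenger receptor of the collectin family that binds sugars and oxidized lipoproteins at the cell surface. Colec12 had 2800, 3639 and 4474 counts in SAFB KD 1 to 3, against 9473, 8885 and 7734 counts in control 1 to 3. The groups did not overlap, and the deepest SAFB KD library held fewer Colec12 reads than the shallowest control library. In CPM it was at 83.1 ± 3.08 in SAFB KD and 222 ± 6.77 in control cells (SD, n = 3 each), a log2 fold change of -1.42 (SE 0.0342). Among the 252 hosts of tested same-strand intronic pseudogenes, 8 had a lower fitted change than Colec12.

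Gm6611 matched best to AF366264, a gene on chromosome 8. It had 173, 210 and 279 counts in SAFB KD 1 to 3, against 3, 1 and 12 counts in control 1 to 3. Control 3 held 12 of the 16 control reads and the other control libraries were nearly empty. The level was 5.04 ± 0.246 CPM in SAFB KD and 0.150 ± 0.181 CPM in control cells (SD, n = 3 each), a log2 fold change of 5.18 (SE 0.274), or 36.2-fold. Without control 3 the log2 fold change was 6.63, so the size of this change rests on that library while its direction does not.

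Lrch3 encodes a protein with leucine-rich repeats and a calponin homology domain, of a family that binds DOCK proteins, which activate small GTPases of the cytoskeleton. Lrch3 had 810, 1069 and 1317 counts in SAFB KD 1 to 3, against 1859, 1554 and 1205 counts in control 1 to 3. The raw counts overlap because the libraries differ in depth, but in CPM the groups were apart, with 23.0, 24.8 and 25.1 in SAFB KD and 42.8, 38.3 and 35.9 in control cells. The log2 fold change was -0.68 (SE 0.0568), and it was -0.61 without control 1.

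Gm9042 is a copy of Ik, whose product is a nuclear protein of the spliceosome. It had 78, 99 and 145 counts in SAFB KD 1 to 3, against 6, 6 and 4 counts in control 1 to 3. The control libraries were low and even. The level was 2.43 ± 0.296 CPM in SAFB KD and 0.135 ± 0.0146 CPM in control cells (SD, n = 3 each), a log2 fold change of 4.14 (SE 0.292), or 17.6-fold.

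Pcgf5, its host, encodes a subunit of a variant Polycomb repressive complex 1, which marks chromatin by ubiquitylating histone H2A. Pcgf5 had 2712, 3147 and 3772 counts in SAFB KD 1 to 3, against 3147, 3053 and 2489 counts in control 1 to 3. In CPM the groups overlapped, with 77.1, 73.0 and 71.9 in SAFB KD and 72.5, 75.1 and 74.1 in control cells. The log2 fold change was 0.00 (SE 0.0373), so that Pcgf5 was the host of the 5 with no difference beyond the spread between libraries. A further pseudogene, Gm47773, lies in a same-strand intron of Pcgf5. It had 7, 2 and 16 counts in SAFB KD 1 to 3 and 3, 2 and 9 counts in control 1 to 3, and the groups overlapped (adjusted p = 0.564, edgeR quasi-likelihood test).

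Gm19040 is a copy of Camsap1, which encodes a protein that binds the minus ends of microtubules. It had 61, 68 and 79 counts in SAFB KD 1 to 3, against 1, 2 and 4 counts in control 1 to 3. The level was 1.61 ± 0.116 CPM in SAFB KD and 0.0638 ± 0.0496 CPM in control cells (SD, n = 3 each), a log2 fold change of 4.67 (SE 0.407), or 25.5-fold. Without control 3, which held 4 of the 7 control reads, it was 5.36.

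Its host Atg7 encodes the E1-like enzyme that activates ubiquitin-like proteins for the growth of autophagosomes. Atg7 had 358, 432 and 539 counts in SAFB KD 1 to 3, against 752, 736 and 577 counts in control 1 to 3. Each SAFB KD library was below each control library even before scaling. In CPM, Atg7 was at 10.2 ± 0.127 in SAFB KD and 17.5 ± 0.504 in control cells (SD, n = 3 each), a log2 fold change of -0.79 (SE 0.0686). Another pair of short same-strand pseudogenes in Atg7, Gm44332 and Gm44331, were not tested, with 7 reads and 1 read over the 6 libraries.

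Gm18981 is a copy of Nr5a2, which encodes a nuclear receptor that is active in liver, pancreas and early embryo. It had 50, 85 and 62 counts in SAFB KD 1 to 3, against 3, 3 and 3 counts in control 1 to 3. Of the 5 pseudogenes it varied most between SAFB KD libraries in CPM, with 1.42, 1.97 and 1.18. The level was 1.53 ± 0.405 CPM in SAFB KD and 0.0774 ± 0.0106 CPM in control cells (SD, n = 3 each), a log2 fold change of 4.26 (SE 0.399), or 19.1-fold.

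Cacna1c encodes the pore-forming subunit of an L-type voltage-gated calcium channel. Cacna1c had 1421, 1841 and 2044 counts in SAFB KD 1 to 3, against 2524, 2191 and 1847 counts in control 1 to 3. In CPM the groups did not overlap, with 40.4, 42.7 and 39.0 in SAFB KD and 58.2, 53.9 and 55.0 in control cells. The log2 fold change was -0.45 (SE 0.0450), the smallest among the 4 hosts that were lower. In CPM, SAFB KD lay below control with no overlap for these 4 hosts and for 23.7% of tested genes.

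**Figure D2:**
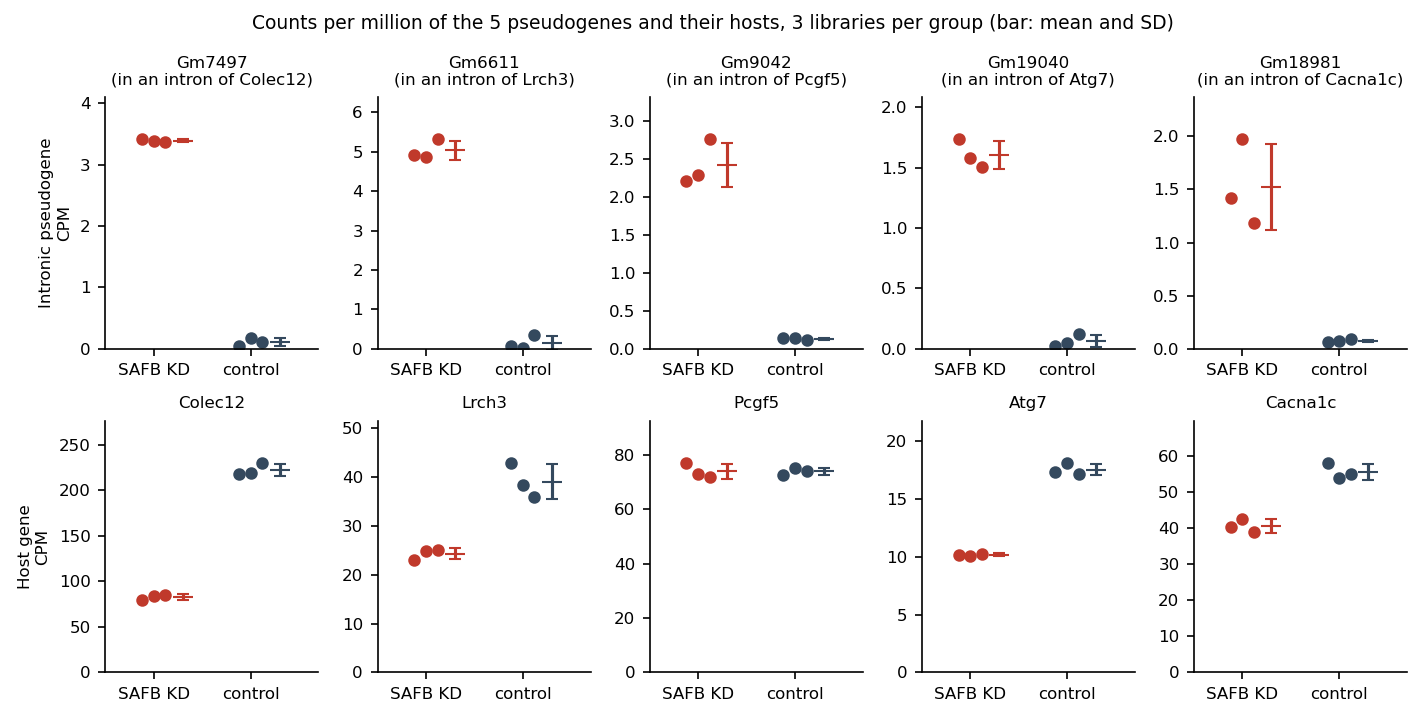
CPM of each library (dots) with the mean and SD (bar) for the 5 pseudogenes (top) and their hosts (bottom), SAFB KD in red and control in dark blue, each panel on its own axis from 0. The pseudogenes sat between 1.18 and 5.32 CPM in SAFB KD libraries and between 0.0230 and 0.357 CPM in control libraries, and 4 of the 5 hosts were lower in every SAFB KD library.

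The size of the pseudogene signal relative to the host loss depended on whether length was taken into account. In CPM, which does not correct for length, the difference of SAFB KD minus control was 3.28 for Gm7497 and -139 for Colec12, 4.89 for Gm6611 and -14.7 for Lrch3, and 1.54 for Gm19040 and -7.38 for Atg7. For Gm18981 it was 1.45, beside -15.0 for Cacna1c, and for Gm9042 it was 2.29, beside 0.0791 for Pcgf5. Per kb of exon the same difference was 3.30 CPM for Gm7497 and -16.0 for Colec12, 0.326 for Gm19040 and -1.06 for Atg7, and 1.38 for Gm9042 and 0.00626 for Pcgf5. For Gm6611 it was 3.84, beside -2.22 for Lrch3, and for Gm18981 0.905, beside -0.708 for Cacna1c. Per kb here divides by the exons of all annotated transcripts merged, and by that length the gain exceeded the host loss in these pairs. Merged exons span 6610 bases in Lrch3 and 21191 in Cacna1c, against 2794 and 6669 in the transcripts used above for position. Over those shorter lengths the host loss would be the larger, so this order depends on the length used. Per kb of exon, Gm6611 reached 3.96 CPM in SAFB KD and 0.118 CPM in control cells, beside 3.68 CPM for Lrch3 in SAFB KD and 5.90 CPM in control cells. By merged exons, Gm6611 was thus the 1 pseudogene whose level per kb in SAFB KD was as high as that of its host. It had 108 pseudogene counts per kb for each 100 host counts per kb. The same figure in SAFB KD was 49.2 for Gm18981, 35.7 for Gm7497, 25.4 for Gm9042 and 23.1 for Gm19040, and in control cells it was 0.438 to 1.82 for all 5. Dividing host counts by a single, shorter transcript would lower each figure, and Gm6611 would then be below Lrch3.

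A ratio of pseudogene to host counts within a library does not depend on how libraries are scaled to each other. Gm7497 had 4.29, 4.01 and 3.96 counts per 100 Colec12 counts in SAFB KD 1 to 3, against 0.0211, 0.0788 and 0.0517 in control 1 to 3. For Gm6611 the ratio per 100 Lrch3 counts was 21.4, 19.6 and 21.2 in SAFB KD, against 0.161, 0.0644 and 0.996 in control libraries. Both ratios were within a narrow band in SAFB KD and spread widely in control libraries, where they rest on few reads.

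Gm9042 had 2.88, 3.15 and 3.84 counts per 100 Pcgf5 counts in SAFB KD 1 to 3, against 0.191, 0.197 and 0.161 in control 1 to 3. The ratio of Gm19040 per 100 Atg7 counts was 17.0, 15.7 and 14.7 in SAFB KD, against 0.133, 0.272 and 0.693 in control libraries. For Gm18981 per 100 Cacna1c counts it was 3.52, 4.62 and 3.03 in SAFB KD, against 0.119, 0.137 and 0.162 in control libraries. From summed counts, the ratio was 81.5-fold higher in SAFB KD for Gm7497, 59.8-fold for Gm6611, 46.2-fold for Gm19040, 27.1-fold for Gm18981 and 18.2-fold for Gm9042, the copy whose host was level. On the log2 scale these differences, in the same order of pseudogenes, are 6.35, 5.90, 5.53, 4.76 and 4.18. Without control 3 the log2 ratio was 7.47 for Gm6611 and 6.28 for Gm19040, against 6.37 for Gm7497, so that the order of Gm7497 and Gm6611 turns on that library.

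**Figure D3:**
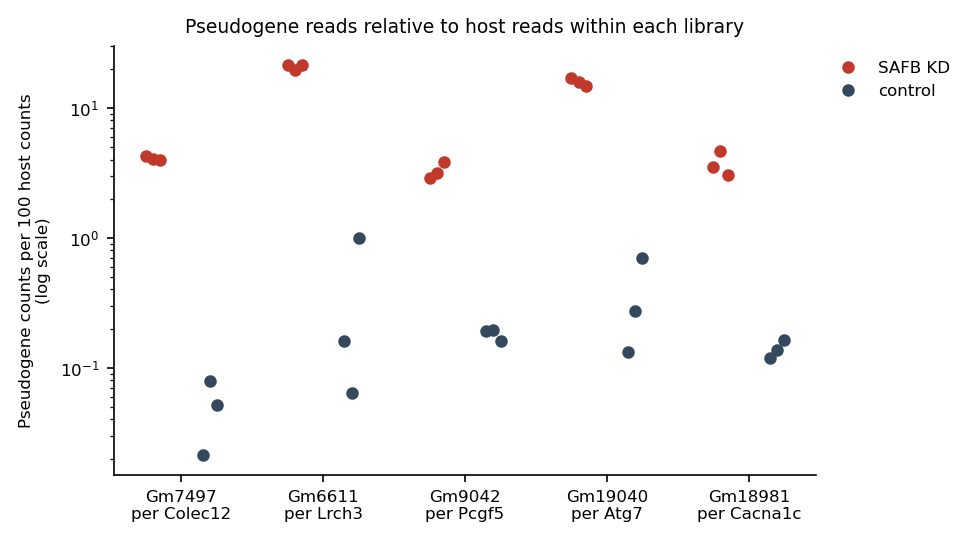
Counts of each pseudogene per 100 counts of its host in the same library, on a log axis, SAFB KD in red and left of control in dark blue, 1 dot per library. In SAFB KD every ratio lay between 2.88 and 21.4, and in control libraries every ratio was below 1.

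Reads of a pseudogene can be confused with those of its parent, so the parents and the closeness of the copies were examined. Against the best-matching transcript of the parent, Gm7497 differed at 84 of 985 aligned bases, Gm6611 at 59 of 1272, Gm9042 at 128 of 1589, Gm19040 at 271 of 4596 and Gm18981 at 148 of 1584. That is 1 difference in 21.6 bases for Gm6611, the closest copy, and 1 in 10.7 bases for Gm18981, the most diverged. The longest run without a difference was 104 bases in Gm6611 and 46 to 72 bases in the others. As annotated, the copies take in nearly the whole coding sequence of the parent (96.1% to 100% of its bases, and 84.7% for Gm6611) and little else. Sequence beyond the annotated ends was not examined, so the full extent of each insertion is not known.

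A 90-base stretch of each of 3 copies is shown above the matching stretch of its parent, chosen to hold about the average number of differences, with the differing bases in capitals. Positions are chr16:32923249-32923338 (+) for Gm6611, chr6:114738980-114739069 (+) for Gm19040 and chr6:118619041-118619130 (-) for Gm18981.
Gm6611: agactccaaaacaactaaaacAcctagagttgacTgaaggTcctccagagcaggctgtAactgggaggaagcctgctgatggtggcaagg
AF366264: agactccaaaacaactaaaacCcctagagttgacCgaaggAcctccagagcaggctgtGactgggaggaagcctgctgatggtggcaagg
Gm19040: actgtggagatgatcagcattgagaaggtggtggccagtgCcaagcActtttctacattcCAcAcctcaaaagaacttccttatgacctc
Camsap1: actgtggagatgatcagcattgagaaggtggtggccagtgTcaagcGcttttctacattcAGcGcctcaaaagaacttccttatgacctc
Gm18981: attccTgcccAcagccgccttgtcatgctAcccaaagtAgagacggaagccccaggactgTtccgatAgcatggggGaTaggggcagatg
Nr5a2: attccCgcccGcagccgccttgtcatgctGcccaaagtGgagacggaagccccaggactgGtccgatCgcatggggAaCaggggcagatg
The stretches hold 4 differences for Gm6611, 5 for Gm19040 and 8 for Gm18981.

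The parents ranged from silent to abundant. AF366264 had 0, 0 and 2 counts in SAFB KD 1 to 3 and 0 counts in every control library, and Nr5a2 had 3, 0 and 2 counts in SAFB KD and 2, 0 and 0 counts in control libraries. Both were too low to be tested, and 4930444G20Rik, a nearly equal match of Gm6611, had 0 counts in every library (named after its values were seen). Camsap1 was at 67.2 ± 0.197 CPM in SAFB KD and 68.2 ± 1.38 CPM in control cells (log2 fold change -0.02, SE 0.0372, adjusted p = 0.716, edgeR quasi-likelihood test), and Ik at 122 ± 0.996 CPM in SAFB KD and 118 ± 3.23 CPM in control cells (0.05, SE 0.0330, adjusted p = 0.262; SD, n = 3 each).

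Gapdh rose, to 1546 ± 41.4 CPM in SAFB KD, against 1090 ± 53.4 CPM in control cells (SD, n = 3 each; log2 fold change 0.50, SE 0.0307, adjusted p = 5.46e-17, edgeR quasi-likelihood test). It is the most abundant of the parents, and reads of it that align to Gm7497 by error cannot be seen in gene counts. By BLAST, the coding genes Gm10358 and Gm3839 matched Gm7497 nearly as well (90.3% and 90.1% identity, against 90.4% for Gapdh). Their counts are not given here. The annotation lists 227 other pseudogene copies that match Gapdh best, and 96 of them had no read in any library. Of the 63 that were tested, 5 rose and 1 fell, with fitted log2 fold changes of all 63 from -2.24 to 2.31. The copy with the most reads, Gm13394, lies in a same-strand intron of Cfap77 and was at 229 ± 11.7 CPM in SAFB KD and 153 ± 4.41 CPM in control cells, a rise of 0.58 (SE 0.0341, adjusted p = 1.84e-17), close to that of Gapdh itself. The 5 tested copies in same-strand introns of other coding genes had log2 fold changes of 0.41 to 1.02, against 4.90 for Gm7497. Gm13394 was named after its values were seen.

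**Figure D4:**
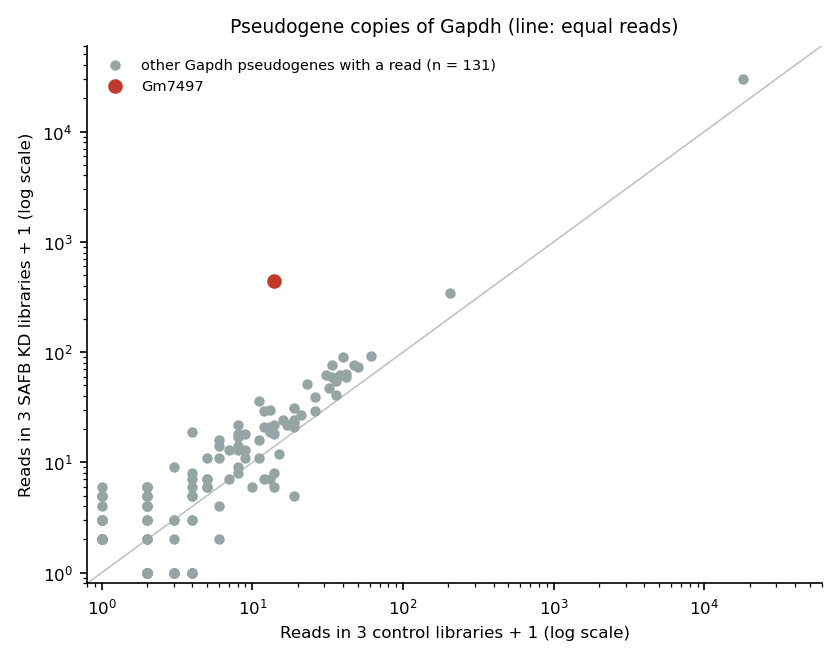
Reads summed over 3 SAFB KD libraries (vertical) against reads summed over 3 control libraries (horizontal), 1 added to each, on log axes, for every pseudogene copy of Gapdh with a read. Gm7497 (red) had 443 reads in SAFB KD and 13 in control libraries and lies far above the line of equal reads, near which the other copies (grey) are scattered.

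The other parents have few further copies. AF366264 has 7, Camsap1 has 1 and Nr5a2 has 1, none of them in an intron of a coding gene, and no other copy of Ik was found. None of these 9 had 10 reads over the 6 libraries, the most being 5 for Gm19026, a copy of Camsap1 of nearly the length of Gm19040.

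The 5 pseudogenes were long for intronic copies. The 263 tested same-strand intronic pseudogenes had a median length of 614 bases (lower quartile 408, upper quartile 983). Of those, 63 were longer than Gm7497, 34 than Gm6611, 19 than Gm18981, 17 than Gm9042 and 1 than Gm19040. Long copies collect more reads at the same expression, and the pairs were picked for reads, so this length was not independent of the choice.

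Base composition and GAAGAA differed among the 5. GAAGAA was searched on both strands and overlapping matches were counted. On the RNA strand Gm19040 held 8, Gm9042 held 5, Gm6611 held 3, Gm18981 held 1 and Gm7497 held 0. Per kb that is 3.00 for Gm9042, 2.36 for Gm6611, 1.69 for Gm19040 and 0.625 for Gm18981, beside a median of 1.14 over the 263, of which 58.6% held at least 1 on the RNA strand and 21.3% on the other strand. Since a longer sequence holds the motif more often, the share is 80.0% among the 65 copies at least as long as Gm7497. Adenosine made up 33.8% of Gm9042, 32.0% of Gm6611, 29.3% of Gm18981, 27.9% of Gm19040 and 25.9% of Gm7497, beside a median of 29.1%. Gm7497, with no GAAGAA and less adenosine than 204 of the 263, was 29.9-fold higher in SAFB KD, so neither feature was shared by all 5. Among all same-strand copies, GAAGAA on the RNA strand was held by 85.0% of the 20 called higher beyond 2-fold (86.7% of the 15 other than the 5), against 56.4% of the other 243. Median adenosine was 31.4% in those 20, against 28.9% in the 243. Median length was 649 bases in the 20, against 609 in the 243. Median reads over the 6 libraries were 210 in the 20, against 40 in the 243, so many of the 243 had few reads on which a call could rest. These differences were not tested. The polyadenylation hexamer AATAAA was searched on the RNA strand within the annotated models only. It was found 2 times in Gm19040 and 1 time in Gm18981 and was not in the models of the other 3, while 19.4% of the 263 held it. The models of the 5 stop at or near the end of the coding sequence of the parent, and sequence beyond them was not searched. These letters alone do not show a site in use.

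The pairs belong to a wider set, chosen by annotation and by at least 10 reads over the 6 libraries for both copy and host. A copy nearly silent in control cells meets this minimum only through its SAFB KD reads. Gm16102, for example, had 0 of its 34 reads in control libraries. The shares that rose are therefore not independent of the minimum, which was the same for all genes and for opposite-strand copies. Of the 263 same-strand intronic pseudogenes, 50 rose (19.01%, beside 21.4% of all tested genes) and 4 fell (1.52%, beside 20.1%). Beyond 2-fold 20 rose (7.60%, beside 0.699% of all tested genes). The median level of the 263 was 0.147 CPM in control cells, where a fall is hard to call. Their shares and those of all genes were not compared at equal read depth. Of 213 on the strand opposite to their host, 15 rose (7.04%) and 3 fell (1.41%), and 1 rose beyond 2-fold (0.469%). This was Gm8818 in Lamc1, named after its values were seen, a call that DESeq2 and limma-voom did not make. The median log2 fold change was 0.29 on the same strand, 0.19 on the opposite strand and 0.01 over all genes. Without the 5 described here, 45 of 258 same-strand copies rose and 15 rose beyond 2-fold (5.81%), with a median of 0.27.

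**Figure D5:**
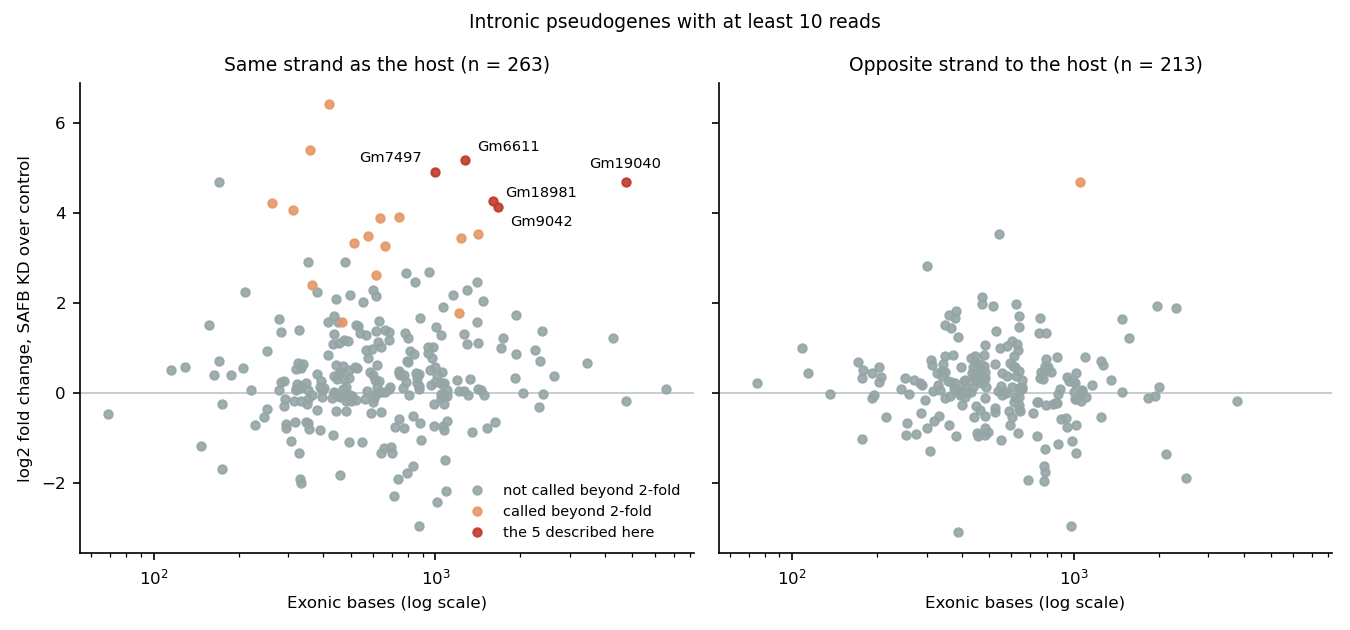
Log2 fold change of SAFB KD over control against the exonic bases (log axis) of 263 tested intronic pseudogenes on the strand of their host (left) and 213 on the opposite strand (right). Orange marks calls beyond 2-fold and red the 5 described here, which lie between 4.14 and 5.18 at lengths of 993 to 4726 bases.

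By fitted log2 fold change, the 5 took ranks 3, 4, 6, 7 and 9 of the 263. Copies above or among them that were not picked had few reads. Gm16102 in Gulp1 had 34 reads over the 6 libraries and Gm18883 in Slc38a9 had 64, with 0 and 1 of them in control libraries, Gm30280 in Ptpn14 had 50, and Gm49011 in Vwa8, which was not called beyond 2-fold, had 10. The last of the 5 was Gm9042 at 4.14 (338 reads), and the next below it was Gm15538 in Cluap1 at 4.06 (160 reads).

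Further copies called beyond 2-fold, with their fitted log2 fold changes, were Gm18225 in Zfp810 (3.92), Gm14049 in Atrn (3.88), Gm17809 in Nxpe3 (3.54), Gm12577 in Lpar1 (3.50), Gm15937 in Ttc33 (3.45) and Gm2531 in Rock1 (3.33). Of the 15 hosts of the copies called beyond 2-fold other than the 5, 11 fell, 1 rose and 3 were not called, with a median of -0.48, beside 20.1% of all tested genes that fell and 21.4% that rose. Smo, the Hedgehog signal transducer, had the largest fall of these at -0.72 (SE 0.0332, adjusted p = 1.09e-20, edgeR quasi-likelihood test), with Gm13717 in its intron at 2.39. It was at 91.6 CPM in SAFB KD and 150.4 CPM in control cells, and it was named after its values were seen. Atrn at 0.05 (SE 0.0344, adjusted p = 0.297) and Rock1 at -0.04 (SE 0.0330, adjusted p = 0.375) were, like Pcgf5, hosts without a called change. Over all 252 hosts of same-strand copies, 100 fell (39.7%, beside 20.1% of all tested genes) and 52 rose (20.6%, beside 21.4%), with a median of -0.10. In either direction 60.3% of these hosts were called, beside 41.5% of all tested genes. Their median level in control cells was 35.3 CPM. Small changes are called more easily at high read depth, and the shares were not compared at equal depth.

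Other genes of each host pathway were counted to show whether a change in the host was accompanied by changes around it. In all of them the test was the edgeR quasi-likelihood test over all genes, and the hosts themselves were left out. The counts stand beside 21.4% of all tested genes that rose and 20.1% that fell. Beside Colec12, 12 scavenger receptor and collectin genes were tested, of which 5 fell (41.7%) and 4 rose (33.3%), with a median log2 fold change of 0.03. Scara3 fell by 0.82 (SE 0.0516, adjusted p = 1.57e-16) and Scara5, a ferritin receptor, fell by 0.64 (SE 0.0576, adjusted p = 3.93e-12). Scarb1, the receptor for high-density lipoprotein, fell by 0.31 (SE 0.0351, adjusted p = 1.09e-09), while the lysosomal membrane protein gene Scarb2 rose by 0.30 (SE 0.0344, adjusted p = 1.12e-09). Cd68, also a leukocyte marker, rose by 0.99 (SE 0.111, adjusted p = 1.14e-09) and was named after its values were seen. The summed level of the 4 leukocyte markers, Cd68 included, was 6.45 to 8.46 CPM in SAFB KD and 3.48 to 4.29 CPM in control libraries. Cd68 made up nearly all of this sum, at a mean of 7.54 CPM in SAFB KD and 3.82 CPM in control cells. Only 1 of the 4 markers reached 1 CPM in control cells. The part of other cells in the level of Cd68 was not tested.

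Beside Lrch3, its family and partner genes were also examined. Dock6, which encodes a guanine nucleotide exchange factor for small GTPases, fell by 0.24 (SE 0.0631, adjusted p = 0.00185). The paralogs Lrch1 (-0.06, SE 0.0674) and Lrch2 (-0.03, SE 0.0427) were not called and were named after their values were seen.

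For Polycomb repressive complex 1, 21 genes beside Pcgf5 were tested, of which 8 fell (38.1%, beside 20.1% of all tested genes) and 5 rose (23.8%, near the 21.4% of all tested genes), with a median of -0.05. Cbx6, a chromobox reader of H3K27 methylation, fell by 0.27 (SE 0.0307, adjusted p = 1.33e-09), as did the PCGF subunit gene Bmi1 (SE 0.0336, adjusted p = 6.91e-09). Of the paralogous adaptors of variant complexes, Yaf2 rose by 0.33 (SE 0.0468, adjusted p = 1.58e-07) and Rybp fell by 0.32 (SE 0.0480, adjusted p = 5.81e-07).

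Of 26 tested autophagy genes other than Atg7, 6 rose and 6 fell (23.1% each, near the 21.4% and 20.1% of all tested genes), with a median of 0.05. Gabarapl1, an ATG8 family member that is conjugated to lipid, rose by 0.28 (SE 0.0338, adjusted p = 4.92e-09). Wipi1, which binds phosphoinositides on forming autophagosomes, fell by 0.26 (SE 0.0377, adjusted p = 3.06e-07). Becn1, a subunit of the lipid kinase complex, rose by 0.20 (SE 0.0368, adjusted p = 1.72e-05), and Atg3, the E2-like enzyme that receives ATG8 proteins from ATG7, rose by 0.23 (SE 0.0427, adjusted p = 2.27e-05).

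Among voltage-gated calcium channel genes other than Cacna1c, 9 were tested, of which 5 fell (55.6%, beside 20.1% of all tested genes) and 4 were not called (median -0.14). Cacna1g, a T-type pore subunit, was at 3.97 ± 0.213 CPM in SAFB KD and 7.82 ± 0.314 CPM in control cells (SD, n = 3 each) and fell by 0.98 (SE 0.101, adjusted p = 1.54e-10). Cacna2d1, an auxiliary subunit, fell by 0.27 (SE 0.0416, adjusted p = 1.20e-06). The pore subunit genes Cacna1s of skeletal muscle and Cacna1a of neurons fell by 1.53 (SE 0.257, adjusted p = 3.92e-06) and 0.41 (SE 0.0828, adjusted p = 7.69e-05). The 3 neuronal markers summed to 15.1 to 16.7 CPM in SAFB KD and 23.7 to 25.7 CPM in control libraries, and the part of this in the channel genes was not tested.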

How the data were processed

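A total of 6 libraries of poly(A)+ RNA were analysed, 3 per group. Per the labels, libraries were strand-specific. The authors aligned reads to GRCm38 with STAR 2.7.9a and deposited raw counts, whole numbers of uniquely aligned reads per gene, 1 library per file. The column was taken to be the reverse-stranded count, which the files themselves do not say. Such counts leave out reads outside annotated exons and reads that fit several copies equally well. Identifiers were matched to GENCODE vM21 (54495 of 54532). An intronic pseudogene was one that lies whole in an annotated intron of a tested coding gene and overlaps none of its exons.

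Genes with at least 10 reads over the 6 libraries were fitted with edgeR 4.0.16 (TMM, quasi-likelihood, no covariate) in R 4.3.3, with Benjamini-Hochberg adjustment over 19452 genes, calls at 0.05, and glmTreat with a log2 threshold of 1. SE is the log2 fold change divided by the square root of the F statistic. Tests were 2-sided and the replicates are called biological by the series text. Parents were found with BLAST+ 2.17.0 (E value at most 1e-20, coding strand). The fit was checked on simulated data. Alternatives were DESeq2 1.42.0, limma-voom (limma 3.58.1), other scaling and filters, a replicate block and leaving out each library. The members and lists were chosen with earlier results of these data known. Named were the members, knockdown targets, parents, the 10 largest other called same-strand copies with their hosts, other tested genes in the hosts, and up to 4 genes per pathway list by adjusted p. Some results, among them 1 gene of the Lrch3 list and 1 stretch of sequence, are not reported here.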

Additional observations from a re-analysis of the deposited data

How the results depend on the processing

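The 5 pseudogenes stayed higher and Colec12, Lrch3, Atg7 and Cacna1c lower under every alternative tried. The log2 fold change of Gm6611 was 4.66 to 6.63 and that of Gm19040 4.25 to 5.36 over the fits that left out 1 library, both highest without control 3. With 1 count added per gene and library, the log2 ratio of pseudogene to host counts was lower for all 5, at 6.06 for Gm7497 (6.35 as reported), 5.66 for Gm6611 (5.90), 5.03 for Gm19040 (5.53), 4.37 for Gm18981 (4.76) and 3.95 for Gm9042 (4.18). Over all genes, 136 higher and 102 lower beyond 2-fold became 76 and 55 with DESeq2, and 79 and 58 with limma-voom. For same-strand intronic pseudogenes, DESeq2 gave 13 higher beyond 2-fold and 2 lower. For those on the opposite strand it gave 9 higher and 0 beyond 2-fold, the filterByExpr filter likewise 9 and 0, and limma-voom 0 beyond 2-fold. Leaving out 1 library gave 9 to 15 higher, 0 to 1 beyond 2-fold and 3 to 6 lower there, with 9 higher and 0 beyond 2-fold without control 1 or control 2 and 0 beyond 2-fold without SAFB KD 1. With library totals 5 were lower there, and 3 genes of the Polycomb list were higher. With limma-voom 0 hosts were higher beyond 2-fold. The cause of these shifts was not tested. Replicate numbers are shared by the groups but did not pair the libraries (correlations of same-numbered deviations 0.05, 0.01 and -0.00), and the replicate block changed 3 lower opposite-strand pseudogenes to 5 and moved no other call count by over 1.5 times. Control values of the 5 pseudogenes rest on 7 to 16 reads, which limits the size of each fold change, and each SE covers the spread between these libraries only.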
